A study of Mus musculus with 3 samples.

Results

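The insulin-like growth factor system was followed through the stromal cells of mouse fat by 10 of the 32285 genes in the count matrices. They are the ligands Igf1 and Igf2, the receptors Igf1r and Igf2r, and the binding proteins Igfbp2, Igfbp3, Igfbp4, Igfbp5, Igfbp6 and Igfbp7, all chosen by name. The cells came from 3 male wild-type C57BL/6J mice aged 8 weeks, without any treatment or second condition. Subcutaneous inguinal fat was digested with collagenase, the floating adipocytes were taken off, and CD31- CD45- cells were sorted from the remaining stromal vascular fraction, which depletes endothelial cells and leukocytes. Each mouse gave 1 library of single-cell 3′ RNA-seq, so comparisons were made between kinds of cells within the same mice. The study divided these adipocyte progenitors into Dpp4+ stem cells, Icam1+ preadipocytes and regulatory cells, and then divided the preadipocytes by CD44 and Noct.

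Insulin-like growth factors are secreted hormones that promote growth and survival, and Igf1 is made by many tissues under the control of growth hormone. Igf1r is the tyrosine kinase receptor that carries their signal, while Igf2r binds Igf2 and mannose 6-phosphate proteins and routes them to lysosomes. The secreted Igfbps hold the ligands outside the cell and can restrain or extend their action, and in fat the ligands and insulin act on preadipocytes as they become adipocytes.

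Cells were assigned by the unique molecular identifiers (UMIs, 1 per captured transcript) of 8 other genes, none of them a member. Progenitor-gated cells held at least 3 UMIs of Dpp4 and Pi16 together and at most 1 of Icam1 and Fabp4. Preadipocyte-gated cells held at least 4 UMIs of Icam1 and Fabp4 and at most 1 of Dpp4. Regulatory-gated cells held at least 1 UMI each of Clec11a and Fmo2 and at most 1 each of Fabp4 and Dpp4. Cilp/Myoc-gated cells held at least 3 UMIs of Cilp and Myoc together and at most 1 of Icam1 and Fabp4. Of 34577 kept cells, 26863 (77.7%) met a gate and 1716 met several. These last cells were left out of the sums, which held 2887 to 8660 progenitor-gated, 1394 to 2278 preadipocyte-gated and 269 to 403 regulatory-gated cells per mouse. Levels are given as CPM, the gene's UMIs scaled to a common total for all UMIs of the summed cells. All 6 progenitor markers had a higher mean in progenitor-gated than in preadipocyte-gated cells, and all 7 preadipocyte markers had the reverse. All 4 regulatory markers were highest in regulatory-gated cells compared with both.

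Depth differed between mice, with 94816520, 78108414 and 99328725 UMIs in kept cells and medians of 7392.5, 12192.5 and 6667 UMIs per cell. Any pair of libraries shared 52 to 81 barcodes. In the 3 gates above, summed markers of cells that the sort depletes reached at most 59.0 CPM (endothelial, 6 genes) and 17.6 CPM (leukocyte, 6 genes). For cells that the sort does not target, the highest sums were 98.4 CPM (mural, 6 genes), 27.6 CPM (Schwann, 5 genes) and 32.1 CPM (mesothelial, 5 genes). They were 7.55 CPM for adipocyte markers (5 genes) and 18.7 CPM for cycling markers (4 genes). The sum of 10 genes of the dissociation response was 11986 to 15601 CPM in progenitor-gated, 19062 to 23987 CPM in preadipocyte-gated and 19255 to 21853 CPM in regulatory-gated cells. It therefore moved with the gates, and its part in the members' differences was not tested.

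The members formed a different set of transcripts in each kind of cell. Progenitor-gated cells had the most Igf1r, Igfbp4, Igfbp5 and Igfbp6, preadipocyte-gated cells had little Igfbp4 and much Igfbp7, and regulatory-gated cells had the most Igf1 and Igfbp7. Between preadipocyte-gated and progenitor-gated cells, 9 of the 9 members that could be tested differed, 3 higher and 6 lower in preadipocyte-gated cells, where 54.9% of 12842 genes also differed (27.5% higher and 27.4% lower). A gene counts as different at an adjusted p under 0.05 in edgeR's quasi-likelihood test, with the p-values of all genes adjusted together. Between regulatory-gated and progenitor-gated cells 7 of 9 differed, 3 higher and 4 lower, where 41.6% of all genes did (19.4% higher and 22.3% lower). From preadipocyte-gated to regulatory-gated cells 7 members were higher and 2 lower, where 24.3% of all genes differed (11.8% higher and 12.5% lower). The members' median log2 fold changes in these comparisons were -1.16, -0.15 and 0.93, beside 0.02, -0.03 and -0.04 over all genes. Without a term for the mouse the genes called fell from 7051 to 3603, from 5346 to 2888 and from 3125 to 1408.

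**Figure D1:**
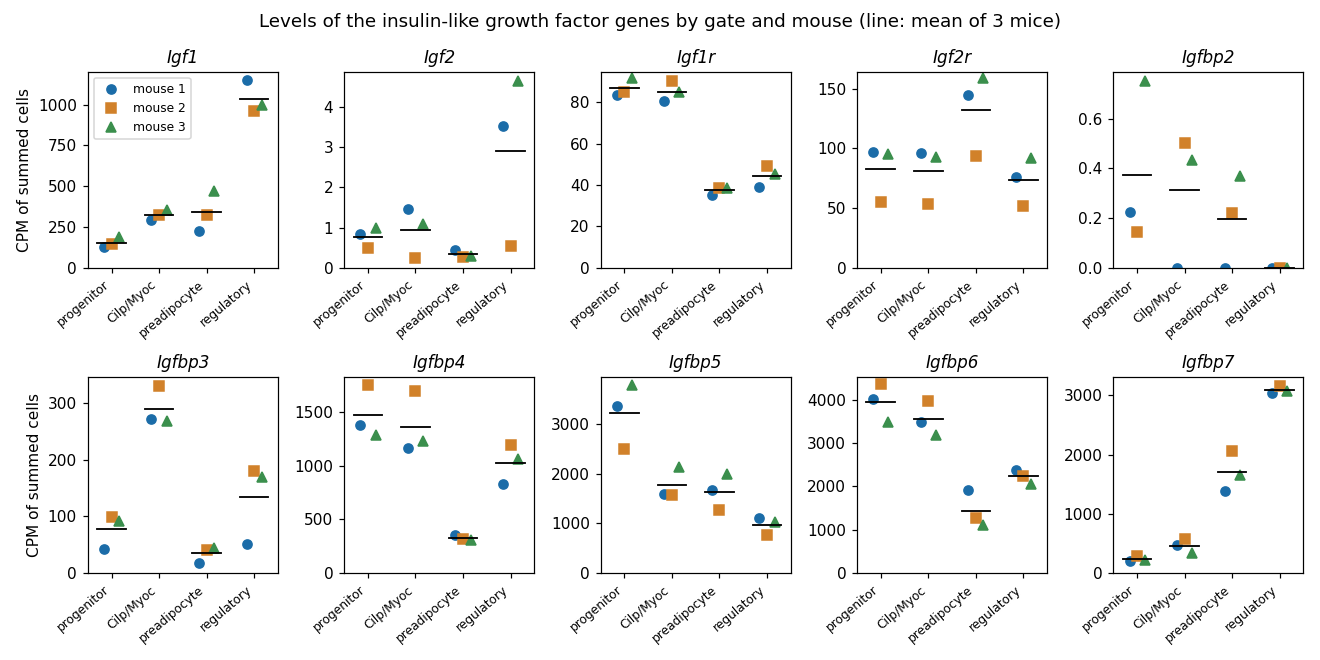
Levels of the 10 members in CPM (vertical axes, each with its own scale from 0) in 4 gates (horizontal axes), with 1 point per mouse and a line at the mean of 3 mice. The Cilp/Myoc gate includes cells that also met the progenitor gate. Igf1 and Igfbp7 were highest in regulatory-gated cells, Igf1r and Igfbp4 were low in preadipocyte-gated cells, and Igfbp3 was highest in the Cilp/Myoc gate.

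Of the ligands, Igf1 (chr10:87858265-87937042, GRCm38, plus strand) was the abundant one. Its level in mice 1, 2 and 3 was 127, 146 and 189 CPM in progenitor-gated cells, 225, 322 and 469 CPM in preadipocyte-gated cells and 1150.1, 958 and 999 CPM in regulatory-gated cells. The 3 gates did not overlap, and their order was the same within each mouse. Means were 154 ± 32.0, 339 ± 123 and 1036 ± 101 CPM (SD, n = 3). On the log2 scale Igf1 was 1.07 higher in preadipocyte-gated than in progenitor-gated cells (SE 0.204, adjusted p = 0.00217) and 1.72 higher in regulatory-gated than in preadipocyte-gated cells (SE 0.210, adjusted p = 0.000491). The regulatory level was 6.95-fold that of progenitor-gated cells (log2 2.80, SE 0.216, adjusted p = 1.33e-05).

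Igf2 (chr7:142650766-142666816, minus strand), the main ligand of fetal growth, was close to absent. Its UMIs numbered 41, 17 and 56 in progenitor-gated cells, 8, 5 and 4 in preadipocyte-gated cells and 5, 2 and 9 in regulatory-gated cells of mice 1, 2 and 3. These counts gave 0.766 ± 0.250, 0.334 ± 0.0876 and 2.91 ± 2.13 CPM (SD, n = 3). The fit called Igf2 lower in preadipocyte-gated cells than in progenitor-gated cells (log2 -1.16, SE 0.436, adjusted p = 0.0277) and higher in regulatory-gated cells (1.75, SE 0.511, adjusted p = 0.00832). Neither call held without mouse 1 (adjusted p = 0.0784 and 0.0575), without mouse 3 (0.191 and 0.211) or without the mouse term (0.123 and 0.0619). Exons of Gm49394 on the same strand and of the antisense gene Igf2os overlap Igf2, so its few counts are uncertain.

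The receptors moved in opposite directions between progenitor-gated and preadipocyte-gated cells. Igf1r (chr7:67952827-68233668, plus strand), the signalling receptor, stood at 83.4, 85.1 and 91.9 CPM in progenitor-gated cells, 35.2, 38.7 and 38.6 CPM in preadipocyte-gated cells and 38.8, 49.2 and 45.1 CPM in regulatory-gated cells. Every progenitor value was above every other value. Igf1r was 2.38-fold higher in progenitor-gated than in preadipocyte-gated cells (log2 change in preadipocyte-gated cells -1.25, SE 0.0769, adjusted p = 2.82e-12). The change in regulatory-gated cells was -0.93 (SE 0.0999, adjusted p = 7.57e-08). A small difference between the latter gates (0.32, SE 0.107, adjusted p = 0.0323) was lost without mouse 2 (0.262), without mouse 3 (0.0785) and without the mouse term (0.323).

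Igf2r (chr17:12682406-12769664, minus strand), the clearance receptor, stood at 96.9, 55.4 and 95.5 CPM in progenitor-gated cells. The values were 145, 93.4 and 159 CPM in preadipocyte-gated cells and 76.2, 52.0 and 92.2 CPM in regulatory-gated cells. Mouse 2 was lowest in each gate, and the ranges of progenitor-gated and preadipocyte-gated cells overlapped, while the preadipocyte value was the higher one within all 3 mice. The log2 change from progenitor-gated cells was 0.65 (SE 0.0726, adjusted p = 7.05e-08), and 0.64 with adjusted p = 0.0866 when the mouse term was left out. Regulatory-gated cells lay below preadipocyte-gated cells (-0.80, SE 0.0898, adjusted p = 3.97e-07, and 0.0827 without the mouse term). Their difference from progenitor-gated cells was not called (-0.15, 95% interval -0.33 to 0.04, adjusted p = 0.211).

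Of the binding proteins, Igfbp4, Igfbp5, Igfbp6 and Igfbp7 had higher mean levels than either receptor in each of these 3 gates. The mean of Igfbp2 lay below both, as did that of Igfbp3 in preadipocyte-gated and progenitor-gated cells. For Igfbp3 the order relative to Igf1r came from mouse 1, since in mice 2 and 3 Igfbp3 was above Igf1r in both of these gates. Igfbp3 was below Igf2r in each mouse in preadipocyte-gated cells, and in mice 1 and 3 in progenitor-gated cells. Levels of different genes are compared because in 3′ counting each captured molecule gives 1 UMI whatever its length. The 6 Igfbp genes together held 8963 ± 70.4 CPM in progenitor-gated cells, 5127 ± 198 CPM in preadipocyte-gated cells and 7441 ± 99.3 CPM in regulatory-gated cells (SD, n = 3). In progenitor-gated cells Igfbp6 made up 44.0%, Igfbp5 36.0%, Igfbp4 16.5% and Igfbp7 2.62% of these UMIs. In preadipocyte-gated cells Igfbp7 made up 33.4% of them, beside 31.9% Igfbp5, 27.7% Igfbp6 and 6.31% Igfbp4. Regulatory-gated cells held 41.5% Igfbp7, 29.9% Igfbp6, 13.8% Igfbp4 and 13.0% Igfbp5. The share of Igfbp7 in regulatory-gated cells was 41.0%, 41.9% and 41.7% in mice 1, 2 and 3. It varied more in preadipocyte-gated cells, at 26.1%, 41.7% and 32.5%.

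**Figure D2:**
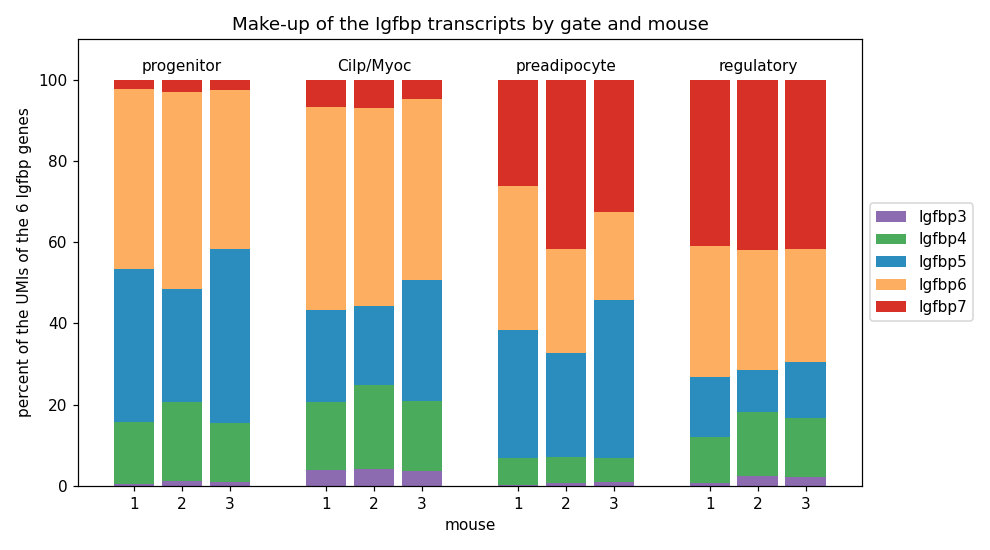
Percent of the UMIs of the 6 Igfbp genes taken by each gene (vertical axis), with 1 stacked bar per mouse in each of 4 gates (horizontal axis). The Cilp/Myoc gate includes cells that also met the progenitor gate, and its mean Igfbp7 share was 6.17% with them and 36.3% without them. Igfbp2, at most 0.00846% in the progenitor gate, is too small to draw. Igfbp7 took 2.62% of these UMIs on average in progenitor-gated cells and 41.5% in regulatory-gated cells, while in preadipocyte-gated cells the leading gene was Igfbp6 in mouse 1, Igfbp7 in mouse 2 and Igfbp5 in mouse 3.

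The promoters of the 4 abundant Igfbp genes are shown because these genes gave the largest levels and moved in different directions. Each is the 250 bases before the gene's start in RefSeq (GRCm38.p6, the build named by the labels as mm10), read 5′ to 3′ on the gene's strand. Capitals mark matches, on either strand, to any of the motifs described here by their letters. The motif of the TATA-binding protein was searched for as TATAAA. The motif of the factor NF-Y was searched for as CCAAT. The GC box, known from Sp factors, was searched for as GGGCGG. The forkhead motif of the Foxo factors was searched for as GTAAACA. The motif of the AP-1 factors was searched for as TGACTCA.
Igfbp7 promoter, chr5:77408046-77408295, minus strand: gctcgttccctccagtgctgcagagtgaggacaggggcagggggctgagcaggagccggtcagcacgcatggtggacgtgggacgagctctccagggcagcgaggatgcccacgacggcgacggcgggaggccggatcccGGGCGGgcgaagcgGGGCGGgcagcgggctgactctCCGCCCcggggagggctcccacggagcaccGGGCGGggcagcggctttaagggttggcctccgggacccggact
Igfbp4 promoter, chr11:99040994-99041243, plus strand: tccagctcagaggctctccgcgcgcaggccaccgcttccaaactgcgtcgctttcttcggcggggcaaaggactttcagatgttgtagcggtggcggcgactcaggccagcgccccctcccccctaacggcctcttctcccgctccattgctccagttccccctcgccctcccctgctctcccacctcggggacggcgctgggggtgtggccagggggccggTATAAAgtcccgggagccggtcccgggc
Igfbp6 promoter, chr15:102143936-102144185, plus strand: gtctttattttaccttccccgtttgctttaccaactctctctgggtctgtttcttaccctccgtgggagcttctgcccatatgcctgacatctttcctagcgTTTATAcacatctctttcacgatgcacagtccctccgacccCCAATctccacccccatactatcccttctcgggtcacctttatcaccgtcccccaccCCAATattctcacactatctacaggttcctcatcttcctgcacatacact
Igfbp5 promoter, chr1:72874866-72875115, minus strand: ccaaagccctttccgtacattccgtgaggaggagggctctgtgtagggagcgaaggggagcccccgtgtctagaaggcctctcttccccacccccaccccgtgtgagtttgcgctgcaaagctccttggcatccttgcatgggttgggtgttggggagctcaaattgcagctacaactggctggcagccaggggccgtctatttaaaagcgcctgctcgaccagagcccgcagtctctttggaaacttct

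The Igfbp7 window held 4 GC boxes and 74.0% G and C. Igfbp4 had the motif of the TATA-binding protein at -28 to -23 from the start. Igfbp6, at 49.6% G and C, had NF-Y motifs at -107 to -103 and -50 to -46 and the motif of the TATA-binding protein on the opposite strand at -148 to -143. None of the 5 motifs was found in the Igfbp5 window, whose last 19 bases lie in an annotated exon of the gene. Among 32851 mouse promoters cut the same way, the motif of the TATA-binding protein was found in 12.4%, that of NF-Y in 33.8%, the GC box in 32.7%, the forkhead motif in 3.17% and that of AP-1 in 4.46%. These matches describe sequence only and are not known to be sites of binding.

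Igfbp7 (chr5:77349240-77408041, minus strand), a secreted matrix protein that binds insulin-like growth factors only weakly, gave the largest log2 differences of the tested members from progenitor-gated cells in the preadipocyte and regulatory gates. It stood at 203, 282 and 221 CPM in progenitor-gated cells, 1393, 2061 and 1658 CPM in preadipocyte-gated cells and 3039, 3162 and 3067 CPM in regulatory-gated cells. No value of one gate reached those of another. The level was 7.04-fold higher in preadipocyte-gated than in progenitor-gated cells (log2 2.82, SE 0.119, adjusted p = 7.23e-14) and 13.4-fold higher in regulatory-gated cells (3.75, SE 0.124, adjusted p = 5.84e-15). Regulatory-gated cells exceeded preadipocyte-gated cells by 0.93 (SE 0.113, adjusted p = 2.72e-06).

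Mural cells of vessels are also known for Igfbp7. The summed level of 6 mural markers was 12.9 to 22.9 CPM in progenitor-gated, 62.0 to 88.8 CPM in preadipocyte-gated and 48.4 to 98.4 CPM in regulatory-gated cells, where Higd1b was at 0. With every cell holding at least 2 UMIs of endothelial, mural, leukocyte, Schwann or mesothelial markers left out, the Igfbp7 changes from progenitor-gated cells were 2.85 and 3.79. Exons of Polr2b overlap Igfbp7 on the opposite strand, and whether the counting used strand is not given in the sources used here.

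Igfbp4 (chr11:99041244-99054392, plus strand), a soluble inhibitor of Igf1 that the protease Pappa cleaves, had its lowest level in preadipocyte-gated cells. In mice 1, 2 and 3 it was at 1384, 1754 and 1289.5 CPM in progenitor-gated cells, 354, 313 and 304 CPM in preadipocyte-gated cells and 833, 1195 and 1059 CPM in regulatory-gated cells. The gates did not overlap. It was 4.61-fold lower in preadipocyte-gated than in progenitor-gated cells (log2 -2.21, SE 0.158, adjusted p = 1.78e-07), and regulatory-gated cells had 1.70 more than preadipocyte-gated cells (SE 0.158, adjusted p = 8.06e-06). The difference between regulatory-gated and progenitor-gated cells was small (-0.50, SE 0.153, adjusted p = 0.0206). It was not called without mouse 1 (-0.41, adjusted p = 0.0507), with stricter gates (0.247) or without the mouse term (0.145).

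Igfbp5 and Igfbp6 were most abundant in progenitor-gated cells. Igfbp5 (chr1:72857932-72874884, minus strand), a binding protein that also attaches to extracellular matrix, stood at 3375, 2501 and 3796 CPM in progenitor-gated cells, 1669.8, 1262 and 1987 CPM in preadipocyte-gated cells and 1101, 772 and 1017 CPM in regulatory-gated cells. It fell stepwise in each mouse. The log2 changes from progenitor-gated cells were -1.01 in preadipocyte-gated (SE 0.108, adjusted p = 6.15e-08) and -1.73 in regulatory-gated cells (SE 0.111, adjusted p = 5.64e-11). Regulatory-gated cells were 0.71 below preadipocyte-gated cells on this scale (log2 -0.71, SE 0.109, adjusted p = 3.68e-05).

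Igfbp6 (chr15:102144362-102149511, plus strand), which prefers Igf2 as its ligand, stood at 4012, 4354 and 3483 CPM in progenitor-gated cells. The values were 1904, 1267 and 1105 CPM in preadipocyte-gated cells and 2381, 2244 and 2052 CPM in regulatory-gated cells, so regulatory-gated cells lay between the others without overlap. The log2 changes from progenitor-gated cells were -1.54 in preadipocyte-gated (SE 0.116, adjusted p = 8.15e-10) and -0.82 in regulatory-gated cells (SE 0.114, adjusted p = 8.87e-06). Regulatory-gated cells exceeded preadipocyte-gated cells by 0.72 (SE 0.114, adjusted p = 8.27e-05).

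Igfbp3 (chr11:7206086-7213923, minus strand), the main carrier of these ligands in blood, varied between mice. It stood at 42.2, 99.4 and 92.3 CPM in progenitor-gated cells, 17.3, 41.1 and 44.6 CPM in preadipocyte-gated cells and 51.5, 180.2 and 169 CPM in regulatory-gated cells. Mouse 1 was lowest in all 3 gates, and the ranges of progenitor-gated cells overlapped both others, while the order of gates was the same within each mouse. The log2 change in preadipocyte-gated cells was -1.23 (SE 0.388, adjusted p = 0.0350), a call lost without mouse 1 (0.0908), without mouse 2 (0.239), in DESeq2 (0.188) and without the mouse term (0.167). Regulatory-gated cells exceeded preadipocyte-gated cells by 2.02 (SE 0.446, adjusted p = 0.0193), a call lost without mouse 1 (0.0656), without mouse 2 (0.263) and without the mouse term (0.0627). Their difference from progenitor-gated cells was not called (0.79, 95% interval -0.22 to 1.81, adjusted p = 0.189), but was when genes of low counts were kept in the fit (0.74, adjusted p = 3.08e-13). All gates were fitted together, so the spread behind these tests also holds the Cilp/Myoc sums. Those stood at 388, 461 and 42.1 CPM for Igfbp3 in mice 1, 2 and 3. Their part in the standard errors and lost calls of the other gates was not tested.

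Igfbp2 (chr1:72824503-72852474, plus strand) was too rare to test, with 113 UMIs in all kept cells, of which mouse 3 gave 89. Progenitor-gated cells held 11, 5 and 43 UMIs, and preadipocyte-gated cells 0, 4 and 5. It was not seen in 1053 regulatory-gated cells, which allows a level of up to 0.428 CPM and a share of cells with a UMI of up to 0.285%. The mean of progenitor-gated cells, 0.373 CPM, lies below that level, so the gates are not told apart. This limit takes UMIs as independent, while the 43 progenitor UMIs of mouse 3 lay in 14 cells, with up to 10 in 1 cell. The Igfbp2 gene lies 5457 bases from that of Igfbp5, which was among the most abundant members.

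**Figure D3:**
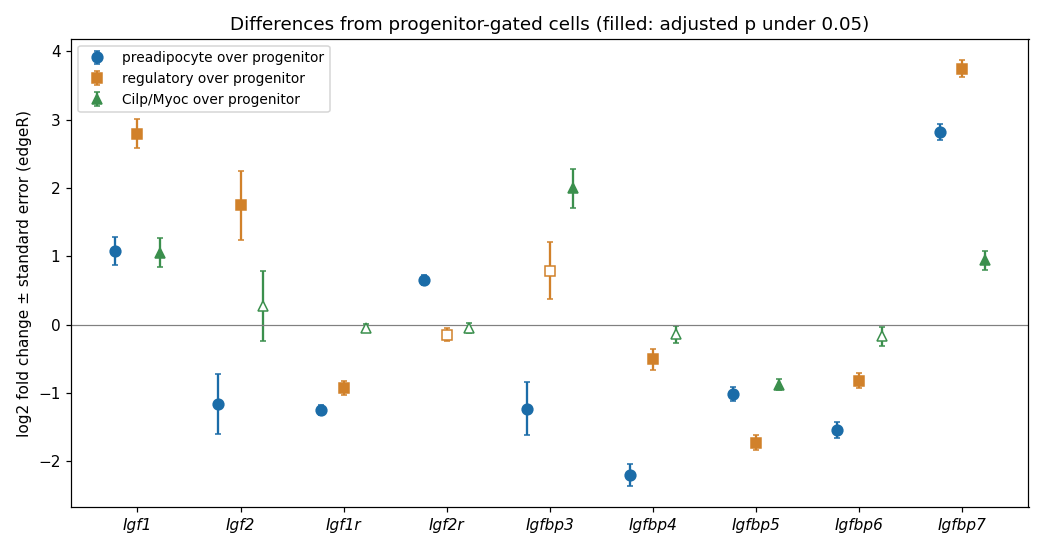
Log2 fold change from progenitor-gated cells (vertical axis) with its standard error for the 9 members that could be tested (horizontal axis), in preadipocyte-gated, regulatory-gated and Cilp/Myoc-gated cells of 3 mice. The Cilp/Myoc gate includes cells that also met the progenitor gate, and its values come from a separate fit. Filled symbols have an adjusted p under 0.05. Igfbp7 reached 2.82 and 3.75, Igfbp4 stood at -2.21 in preadipocyte-gated cells, and Igfbp3 reached 2.00 in the Cilp/Myoc gate.

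The Cilp/Myoc gate overlapped the progenitor gate in 1450 of its 1594 cells (91.0%). When these shared cells were counted as Cilp/Myoc cells, which was decided after the overlap was seen, the gate held 632, 312 and 642 cells. Since most of these cells also met the progenitor gate, likeness to progenitor-gated cells is in large part set by the choice of cells. Igfbp3 stood at 272, 330.2 and 268 CPM in mice 1, 2 and 3, above every value of the other 3 gates, and was 3.99-fold higher than in progenitor-gated cells (log2 2.00, SE 0.287, adjusted p = 0.0125). Igf1 stood at 293, 319.9 and 351 CPM (1.06, SE 0.216, adjusted p = 0.0471) and Igfbp7 at 477, 568 and 336 CPM (0.94, SE 0.143, adjusted p = 0.00713). Igfbp5 was lower, at 1593, 1570.3 and 2132 CPM (-0.88, SE 0.0854, adjusted p = 1.40e-05). These 4 of 9 members were called, 3 higher and 1 lower, where 4.73% of 12823 genes were (3.10% higher and 1.64% lower). The other members gave differences between -0.17 and 0.27 that were not called, with 95% intervals of -0.18 to 0.09 for Igf1r and -0.41 to 0.13 for Igfbp4.

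With the shared cells left out, the Cilp/Myoc gate kept 80, 30 and 29 cells. Since cells that met the progenitor gate were removed, unlikeness to progenitor-gated cells is here in part set by the choice of cells. Summed preadipocyte markers averaged 3830 CPM in the remaining cells, against 1032 CPM with the shared cells. Regulatory markers averaged 1111 against 217 CPM. Against progenitor-gated cells 7 of 9 members were called, where 15.2% of all genes were (6.22% higher and 8.97% lower). Igf1 stood at 677, 628 and 1111 CPM (2.20, SE 0.243, adjusted p = 0.000418) and Igfbp7 at 1277, 2480.3 and 1608 CPM (2.75, SE 0.126, adjusted p = 1.07e-11), both above all progenitor values. Igfbp5 stood at 549, 519 and 446 CPM (-2.76, SE 0.131, adjusted p = 5.75e-12), below all values of the other gates. Igfbp3 stood at 388, 461 and 42.1 CPM and its call (2.23, adjusted p = 0.0417) was lost without mouse 1 (0.363) and without mouse 2 (0.314). Igf2 was called with 7, 1 and 3 UMIs, and the 7 were in 1 cell. Against preadipocyte-gated cells 7 of 9 members were called, where 6.78% of all genes were (3.35% higher and 3.43% lower). Against regulatory-gated cells 4 of 9 were, where 5.54% of all genes were (2.53% higher and 3.01% lower). With the shared cells counted in, 6 members were called against preadipocyte-gated cells, where 46.9% of all genes were (23.5% higher and 23.4% lower). Against regulatory-gated cells 6 were called, where 34.9% of all genes were (18.0% higher and 16.9% lower), and Igfbp5 changed direction in both comparisons. The few cells that remained had a dissociation response of 24519 to 28195 CPM, above 13165 to 19584 CPM in the gate with the shared cells. Its part in these values was not tested.

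The study's division of preadipocytes was followed within the preadipocyte gate. Cells with at least 3 UMIs of Cd44, a hyaluronan receptor, and Noct, a clock-controlled phosphatase, numbered 462, 434 and 481 in mice 1, 2 and 3, and cells with 0 UMIs of both numbered 1006, 515 and 659. Only Igfbp6 of 8 tested members differed, where 23.5% of 11400 genes did (14.6% higher and 8.87% lower). Igfbp6 stood at 2119.8, 1275 and 1183 CPM in Cd44/Noct-high cells and at 1746, 1260.4 and 1076 CPM in Cd44/Noct-negative cells. It was higher in all 3 mice, although the ranges overlapped (log2 0.27, SE 0.0592, adjusted p = 0.00660). This call was lost without mouse 3 (0.121), in DESeq2 (0.125), without the mouse term (0.596) and with library sizes alone for scaling (0.0580). The call was also lost with cells thinned to 3000 UMIs each and gated again (0.788).

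The other members were not called along this division in the fit described, and several depended on how it was made. Igf1 stood at 221, 327 and 434 CPM in Cd44/Noct-high cells and 227, 329 and 456 CPM in Cd44/Noct-negative cells (log2 0.09 after TMM scaling, 95% interval -0.06 to 0.24, and -0.04 with library sizes alone). The interval was -0.01 to 0.57 for Igf1r, -0.11 to 0.22 for Igf2r and -0.36 to 0.26 for Igfbp3. For Igfbp4 it was -0.19 to 0.10, for Igfbp5 -0.21 to 0.12 and for Igfbp7 -0.26 to -0.01 (adjusted p = 0.0973). At 3000 UMIs per cell Igfbp5 was called lower (-0.38, adjusted p = 0.00337), outside its interval. The gates were set again on the thinned counts there, which left 79, 32 and 98 Cd44/Noct-high cells in mice 1, 2 and 3. Igf1r was called higher without mouse 1 (0.43, adjusted p = 0.0446) and was at 0.0334 without mouse 2. With library sizes alone for scaling, Igfbp4 (-0.18, adjusted p = 0.0453), Igfbp5 (-0.18, adjusted p = 0.0355) and Igfbp7 (-0.26, adjusted p = 0.00113) were called lower. In that fit 3167 of 11400 genes were called, 2088 of them lower. Igfbp7 was also called lower with other cell types left out (-0.17, adjusted p = 0.0375). With Cd44 alone in the gate, 5 members were called, where 2245 of 11618 genes were. Among these members were Igfbp3 (0.68, adjusted p = 0.00120) and Igf1 (0.35, adjusted p = 0.000293). Cd44/Noct-high cells had a dissociation response of 14557 to 18740 CPM, below 21889 to 26072 CPM in negative cells. Summed cycling markers were 0.969, 39.5 and 23.6 CPM in Cd44/Noct-high and 1.72, 2.72 and 1.13 CPM in negative cells of mice 1, 2 and 3. Summed endothelial markers were 39.7, 23.0 and 1.07 CPM against 43.0, 94.4 and 6.54 CPM. The part of these 3 marker sums in the values of members and pathway genes along this division was not tested.

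**Figure D4:**
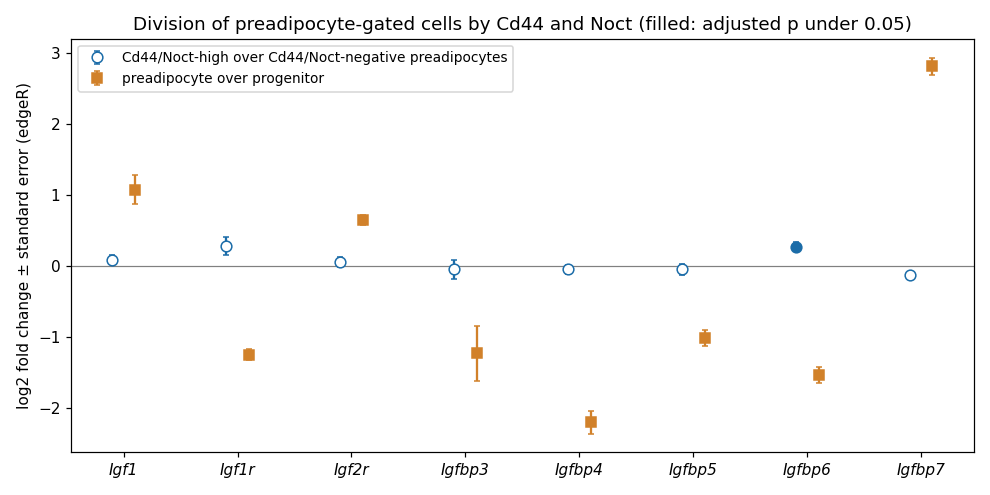
Log2 fold change (vertical axis) with its standard error for 8 members (horizontal axis) between Cd44/Noct-high and Cd44/Noct-negative preadipocyte-gated cells, beside that between preadipocyte-gated and progenitor-gated cells, in 3 mice. Filled symbols have an adjusted p under 0.05. Within preadipocyte-gated cells the values lay between -0.13 and 0.28, and between the gates they lay between -2.21 and 2.82.

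Other genes of the pathway were taken from 7 lists of 72 genes, of which 63 were tested across gates. In preadipocyte-gated against progenitor-gated cells 17 were higher and 21 lower (60.3%, beside 54.9% of all genes). In regulatory-gated against progenitor-gated cells 16 were higher and 25 lower (65.1%, beside 41.6%), and against preadipocyte-gated cells 12 were higher and 13 lower (39.7%, beside 24.3%).

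In the growth hormone axis, which drives Igf1 in many tissues, 6 of 7 genes differed in regulatory-gated against progenitor-gated cells, 4 higher and 2 lower, where 41.6% of all genes did. In preadipocyte-gated cells 4 were also higher and 2 lower, where 54.9% of all genes differed. Ghr, the growth hormone receptor, stood at 164, 185 and 174 CPM in regulatory-gated cells and at 64.5, 71.7 and 82.3 CPM in progenitor-gated cells (log2 1.28, SE 0.103, adjusted p = 3.47e-09). Its level in preadipocyte-gated cells was 68.0, 74.7 and 80.8 CPM, so Ghr and Igf1 shared their highest gate but Ghr did not share the step of Igf1 between the other gates. Cish, a feedback inhibitor of Stat5 signalling, rose from 5.70 ± 2.23 CPM in progenitor-gated to 20.4 ± 4.23 CPM in preadipocyte-gated (1.83, adjusted p = 1.09e-07) and 28.2 ± 6.79 CPM in regulatory-gated cells (2.37, adjusted p = 2.21e-07). The cytokine feedback inhibitor Socs3 reached 1247 ± 78.5 CPM in regulatory-gated cells (1.55, adjusted p = 2.12e-08). Stat5a, which carries the growth hormone signal, was raised in preadipocyte-gated cells (1.48, adjusted p = 5.29e-06). The lower genes, named after their values were seen, were Socs2, a feedback inhibitor of the growth hormone receptor, and Stat5b, the close relative of Stat5a. Socs2 was at -0.77 in preadipocyte-gated (adjusted p = 0.000500) and -0.73 in regulatory-gated cells (adjusted p = 0.0121). Stat5b was at -0.36 (adjusted p = 0.00176) and -0.50 (adjusted p = 0.00552).

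Of the genes with an Igfbp-like domain, Ccn3 and Crim1 were lower than in progenitor-gated cells in both other gates. Ccn3, a matricellular protein, stood at 33.4 ± 4.26 CPM in progenitor-gated cells, 2.06 ± 0.344 CPM in preadipocyte-gated cells (log2 -4.05, adjusted p = 3.85e-15) and 1.43 ± 0.626 CPM in regulatory-gated cells (-4.67, adjusted p = 7.69e-11). Crim1, a membrane protein that binds BMPs, fell to a log2 change of -2.33 in preadipocyte-gated (adjusted p = 6.30e-15) and -1.15 in regulatory-gated cells (adjusted p = 7.54e-07). Kazald1 rose to 1.25 in regulatory-gated cells (adjusted p = 5.27e-07) and was also above preadipocyte-gated cells (1.08, adjusted p = 1.24e-05). In the list as a whole, 0 genes were higher and 2 lower of 7 in preadipocyte-gated cells (28.6%, beside 54.9% of all genes). In regulatory-gated cells 2 were higher and 3 lower (71.4%, beside 41.6% of all genes). In a separate list of 7 Igfbp proteases and their inhibitors, 4 were higher and 1 lower in regulatory-gated than in progenitor-gated cells (71.4%, beside 41.6% of all genes). Against preadipocyte-gated cells 2 were higher and 1 lower (42.9%, beside 24.3% of all genes). The lower gene in both was Htra3, a secreted protease, at 207 ± 35.9 CPM in regulatory-gated cells. It stood at 499.8 ± 37.8 CPM in progenitor-gated cells (-1.26, adjusted p = 5.86e-10) and 498 ± 56.0 CPM in preadipocyte-gated cells (-1.22, adjusted p = 2.64e-09).

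Downstream of the receptor, 8 of 12 adaptors and phosphatases differed between preadipocyte-gated and progenitor-gated cells, 4 in each direction (66.7%, beside 54.9% of all genes). Grb10, which restrains the insulin and Igf1 receptors, fell with Igf1r to 72.1 ± 13.5 CPM from 148 ± 30.5 CPM (-1.07, SE 0.0784, adjusted p = 5.75e-11). Irs1, the adaptor that the receptors phosphorylate, was higher in regulatory-gated than in progenitor-gated cells (1.30, SE 0.131, adjusted p = 7.10e-08), at 51.3 ± 20.6 against 20.7 ± 5.12 CPM. In the list of 26 genes of the Pi3k, Akt and mTor branch, 3 of 25 tested were higher and 11 lower in preadipocyte-gated than in progenitor-gated cells. Their share of 56% was close to the 54.9% of all genes, which were 27.5% higher and 27.4% lower. In regulatory-gated against progenitor-gated cells 4 were higher and 12 lower (64%, beside 41.6% of all genes, 19.4% higher and 22.3% lower). Foxo1, the transcription factor that Akt keeps out of the nucleus, fell to 44.4 ± 1.87 CPM in preadipocyte-gated cells from 87.2 ± 7.87 CPM in progenitor-gated cells (-1.01, adjusted p = 2.32e-09). Igf2bp2, which binds Igf2 mRNA among others, was lower in regulatory-gated than in preadipocyte-gated cells (-1.05, adjusted p = 2.25e-05).

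In the small Cilp/Myoc-only gate, Pappa2, a protease of Igfbp3 and Igfbp5, stood at 134, 34.9 and 8.42 CPM, beside at most 1.10 CPM in progenitor-gated cells (adjusted p = 0.00111). It was also called against preadipocyte-gated (adjusted p = 0.00622) and regulatory-gated cells (adjusted p = 0.0191). The sums of this gate held 446253, 258031 and 118804 UMIs from 80, 30 and 29 cells of mice 1, 2 and 3. The Pappa2 levels of mice 2 and 3 therefore rest on few UMIs. The matricellular genes split there, with Ccn1 lower (-1.03, adjusted p = 4.03e-06), Ccn2 higher (2.54, adjusted p = 0.0328) and Ccn3 lower (-1.39, adjusted p = 0.0241) than in progenitor-gated cells. Against preadipocyte-gated cells Ccn1 was at -1.24 (adjusted p = 1.10e-06) and Ccn2 at 2.89 (adjusted p = 0.0429). Crim1 was lower (-1.45, adjusted p = 0.00468) and Socs3 higher (1.40, adjusted p = 1.08e-06) than in progenitor-gated cells.

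Along the Cd44/Noct division 14 pathway genes were higher and 9 lower of 56 tested (41.1%, beside 23.5% of all genes), while the members gave 1 call. Jak2, the kinase of the growth hormone receptor, stood at 76.3, 50.6 and 94.4 CPM in Cd44/Noct-high and 38.6, 21.6 and 47.1 CPM in negative cells (1.19, adjusted p = 1.75e-05). Stat5a (1.82, adjusted p = 3.90e-06) and Cish (1.77, adjusted p = 0.000459) were higher as well. H19, the noncoding neighbour of Igf2, was higher (1.38, adjusted p = 0.000698), with mouse 1 at 57.2 and mice 2 and 3 at 7.71 and 9.12 CPM in Cd44/Noct-high cells. Ddit4, a stress-induced inhibitor of mTor, was lower (-1.83, adjusted p = 4.13e-05), at 8.46 ± 1.64 against 33.7 ± 9.57 CPM.

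The shares of cells with a UMI followed the summed levels. Median depth was 6658.5 to 11948 UMIs in progenitor-gated, 7296 to 12977 in preadipocyte-gated and 4574 to 9991 in regulatory-gated cells, so cells were thinned to 3000 UMIs each and shallower ones (299 to 1881 per mouse) were left out. Igfbp7 was then found in 37.2% of progenitor-gated, 97.2% of preadipocyte-gated and 99.5% of regulatory-gated cells, means over 3 mice. Without thinning the shares were 58.8%, 99.2% and 99.2%. Igfbp4 was found in 95.9%, 48.9% and 84.7% at 3000 UMIs, and in 98.2%, 72.4% and 90.7% without thinning. Igf1 was found in 29.3%, 44.3% and 79.4% at 3000 UMIs, and in 51.3%, 63.4% and 83.6% without thinning. In 32 cells with at least 3 UMIs of the endothelial genes Pecam1 and Cdh5 the shares at 3000 UMIs were 94.7% for Igfbp7, 45.1% for Igfbp4 and 55.7% for Igf1. Endothelial cells express Igfbp7 themselves, so that share is no measure of free RNA. The reference rests on 19, 8 and 5 cells of mice 1, 2 and 3 and ranged from 25.0% to 100% for Igf1 and from 37.5% to 57.9% for Igfbp4. The shares of Igf1 in each of the gates, regulatory-gated cells included, and of Igfbp4 in preadipocyte-gated cells lay within these ranges. These shares alone are therefore not read as expression.

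Over the 12 sums of 4 gates and 3 mice, 3458 genes of at least 50 CPM were ranked by the likeness of their levels to each member, as Pearson's r of log2(CPM + 1). The sums share libraries and gates, so these values are descriptions. The Cilp/Myoc sums here left out the shared cells and held 80, 30 and 29 cells. Nearest to Igfbp7 were Steap4 (0.989), Bgn (0.983) and Podn (0.970). For Igf1 they were Cpe (0.976), Bace2 (0.956) and Cp (0.955), and for Igf1r they were Tshz1 (0.986), Fndc1 (0.971) and Prkca (0.954). Igf2r was nearest to Mmp14 (0.980), Capn2 (0.966) and Hspd1 (0.951). Igfbp4 was nearest to Rps4x (0.965), Pcolce2 (0.951) and Prrg3 (0.946), Igfbp5 to Prkd3 (0.953), Dnajb6 (0.939) and Fbl (0.938), and Igfbp6 to Tmem158 (0.959), Clip4 (0.942) and Ckb (0.932). Igfbp3 had no close match, with Klf13 (0.838), Fgl2 (0.835) and Casp12 (0.820) nearest. Its Cilp/Myoc sum of mouse 3 held 5 UMIs, and the part of that sum in the lower r was not tested.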

How the data were processed

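Single-cell 3′ libraries of 3 mice were analysed. The authors aligned the reads and counted UMIs with Cell Ranger and deposited whole-number counts per gene and barcode, without normalization. The version is given as 2.1.1 in the labels and as 4.0.0 in the file headers, and the build as mm10 in the labels. A limit of 500 UMIs per barcode held in all deposited files. Barcodes with over 500 genes and under 5% mitochondrial UMIs were kept, and doublets were not removed.

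Counts were summed per mouse and gate, after cells of several gates were left out, and tested in edgeR 4.0.16 (R 4.3.3, filterByExpr, TMM, robust quasi-likelihood test) over all genes, with the mouse as a block and Benjamini-Hochberg adjusted p under 0.05. The test, over mice, replaces the cell-wise test of the study. Standard errors are the log2 fold change over the root of the F statistic. The sums of a mouse come from 1 animal, and after gate means were removed they correlated with a median r of 0.156, 0.309 and 0.214 over 12426 genes, so the block was used. Gates were set on the same cells by 8 genes, which are not reported as results. With the mouse as a block, the p-values set each difference against the spread of the sums over these 3 mice. In comparisons between gates that spread was pooled over all gates fitted together, the Cilp/Myoc sums included. It is therefore not the variation of the tested difference alone. Differences in level between the mice are taken out, and the estimate of spread borrows from other genes. The intervals of log2 fold changes were built from the standard errors of the same test and so also carry this spread. Floors of counts, as given for Igfbp2, cover counting error only.

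Named pathway genes have an absolute log2 fold change of at least 1, an adjusted p under 0.05 and 20 CPM or more on average in either gate. The genes nearest to a member are the 3 of highest r among genes that reach 50 CPM on average. The members and all lists were chosen with earlier results of these data known. The procedure was tested on simulated data with the same spread for every gene. Of 100 genes changed by log2 1, 95 were called between preadipocyte-gated and progenitor-gated cells and 96 in the Cd44/Noct division. Of 100 genes changed by log2 0.5, only 30 and 29 were called, so most changes of that size were missed. False calls numbered 5 and 6. Alternatives were DESeq2 1.42.0, other scalings and filters, other gates, thinning to 3000 UMIs, other cell types left out and each mouse left out. Tables used python 3.11.15, numpy 2.4.6, scipy 1.17.1 and pandas 2.3.3, and figures matplotlib 3.10.9. Gene positions are from GENCODE (GRCm38) and promoters from RefSeq (GRCm38.p6).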

Additional observations from a re-analysis of the deposited data

How the results depend on the processing

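Across 16 alternatives, 747 of 881 recomputed differences of single members kept their direction and their side of the threshold, 71 were no longer called, 30 became called and 33 changed direction. No member changed direction in preadipocyte-gated against progenitor-gated, regulatory-gated against progenitor-gated or regulatory-gated against preadipocyte-gated cells, under any alternative run. Depth limits Igf2 and Igfbp2, and the Cilp/Myoc gate without shared cells, which rests on 139 cells.

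Without the replicate block, that is without pairing the sums of a mouse, the genes called were 3603 for preadipocyte-gated against progenitor-gated cells, 2888 for regulatory-gated against progenitor-gated cells and 1408 for regulatory-gated against preadipocyte-gated cells. For Cilp/Myoc cells they were 1282 against progenitor-gated, 380 against preadipocyte-gated and 289 against regulatory-gated cells, and for the Cd44/Noct division 230. The members called without the block were 4 for Cilp/Myoc against preadipocyte-gated cells, 1 against regulatory-gated cells and 0 for the Cd44/Noct division. The cause was not tested. Thinned to 3000 UMIs, the genes called were 3230 for regulatory-gated and 1207 for Cilp/Myoc against progenitor-gated cells, 1788 for regulatory-gated against preadipocyte-gated cells and 504 for the Cd44/Noct division, where fewer counts entered. DESeq2 called 883 genes and 0 members in that division. Scaling by library size alone called 3 members there (3167 of 11400 genes), leaving out other cell types 2 (2404 of 10949) and gating on Cd44 alone 5 (2245 of 11618).

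With cells of several gates kept, Cilp/Myoc cells gave 458, 6056 and 4666 genes against progenitor-gated, preadipocyte-gated and regulatory-gated cells, and 3 members against the first and 7 against the last. With shared cells given to the Cilp/Myoc gate, chosen after seeing the data, the genes were 607, 6013 and 4474, and 4 members were called against the first. Stricter gates called 3 members against preadipocyte-gated cells (781 of 12456 genes) and 2 against regulatory-gated cells (555 of 12456). Keeping low counts called 7 against regulatory-gated cells (1025 of 21563 genes).

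Leaving out 1 mouse at a time gave 1270 to 1515 genes for Cilp/Myoc against progenitor-gated cells, 470 to 714 against preadipocyte-gated and 382 to 529 against regulatory-gated cells. It gave 1958 to 2584 for regulatory-gated against preadipocyte-gated cells and 1343 to 2181 for the Cd44/Noct division. Members called ranged from 4 to 7 for Cilp/Myoc against preadipocyte-gated cells and from 0 to 2 for the Cd44/Noct division.

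Directions that changed in Cilp/Myoc against preadipocyte-gated cells were Igf1 (-0.0862 with cells of several gates kept, -0.0187 with shared cells given to Cilp/Myoc), Igfbp5 (0.17 and 0.14) and Igfbp7 (0.0338 with RLE scaling, 0.0474 with library sizes, 0.0327 in DESeq2, and -0.17 to 0.0173 with 1 mouse left out). Against regulatory-gated cells they were, in the same order of settings, Igf2 (-1.35 and -1.51), Igf2r (0.0819 and 0.0779, and 0.0471 with library sizes), Igfbp4 (0.37 and 0.35), Igfbp5 (0.85 and 0.83) and Igfbp6 (0.66 and 0.63). In the Cd44/Noct division they were Igf1 (-0.0412 with library sizes), Igf2r (-0.0731 with library sizes, -0.0716 thinned, -0.0108 with other cell types left out, -0.0610 with Cd44 alone), Igfbp4 (0.16 with Cd44 alone) and Igfbp5 (0.00248 with the top 5% of cells by UMIs left out, and -0.17 to 0.0625 with 1 mouse left out). Igfbp3 gave 0.0219 without the block, 0.0900 at a mitochondrial limit of 10%, 0.0715 with the top 5% of cells by UMIs left out, 0.0119 with other cell types left out, 0.68 with Cd44 alone and -0.18 to 0.11 with 1 mouse left out.

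Library sizes alone moved the median log2 change of all genes in the Cd44/Noct division from 0.00 to -0.13, and the share of calls that were higher from 62.2% to 34.1%. For Cilp/Myoc cells without shared cells the share went from 41.0% to 54.6% against progenitor-gated, from 49.4% to 66.1% against preadipocyte-gated and from 45.7% to 69.6% against regulatory-gated cells, and the medians moved from -0.13, -0.11 and -0.08 to 0.01, -0.01 and 0.07.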

Other observations

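Genes below the level set for naming were looked at after their values were seen. Pappa, the secreted protease that cleaves Igfbp4, stood at 8.79 ± 1.61 CPM in preadipocyte-gated cells and 0.161 ± 0.120 CPM in progenitor-gated cells (SD, n = 3, log2 5.59, SE 0.319, adjusted p = 1.87e-11 by edgeR's quasi-likelihood test), higher in 3 of 3 mice. In regulatory-gated cells, where Igfbp4 was at 1029 ± 183 CPM, Pappa stood at 8.47, 4.38 and 1.04 CPM in mice 1, 2 and 3. Grb14, an adaptor that restrains the insulin receptor, stood at 14.3 ± 0.758 CPM in preadipocyte-gated and 0.446 ± 0.0988 CPM in progenitor-gated cells (log2 4.93, SE 0.180, adjusted p = 3.09e-16), while its relative Grb10 was lower there.

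The 7714 kept cells that met no gate were not tested. Their Igf1 level was 408, 449 and 548 CPM in mice 1, 2 and 3, between those of preadipocyte-gated and regulatory-gated cells in each mouse. Igfbp7 stood at 1100.3, 1334 and 1186 CPM and Igfbp4 at 696, 922 and 781 CPM in these cells. Of the 113 Igfbp2 UMIs, 40 were in them, 39 of these in mouse 3.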
